A study of Mus musculus with 12 samples.

Results

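Neural precursor cells from adult mice were exposed to hydrogen peroxide for 8 h, and their polyadenylated RNA was compared with that of sham-treated cells. The comparison rests on the 4 samples labelled as 8 h of 100 µM H2O2 and the 4 sham samples given phosphate-buffered saline, chosen by those labels, 8 of the 12 samples of the series. The other 4 samples had 1 h of 100 µM H2O2 and enter the authors' fit. All cells were primary and undifferentiated, from female C57BL/6 mice of 5 to 12 weeks, with no transgene or deletion named. Per the submitters' design text, each of 4 animals gave a sample to every group. Whether the authors' fit used the animal as a term is not stated. The region of the nervous system that was dissected and the time at which the sham cells were collected are not stated in the labels, so 8 h of peroxide and 8 h of culture after the exposure began cannot be told apart.

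Neural precursor cells divide in culture under growth factors and can form neurons, astrocytes and oligodendrocytes. Hydrogen peroxide oxidises protein thiols and damages DNA. Cells answer with antioxidant genes driven by the factor NRF2, with genes of the p53 pathway that stop division or start cell death, and, as hours pass, with the loss of transcripts that only dividing cells make. The account below follows the late state of these cells from division and p53 to metabolism, protein turnover, trafficking, adhesion, channels and receptors.

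No value of a single sample was used, since the files hold the authors' tests. Every fold change, mean level and adjusted p below comes from the authors' deposited table of a negative binomial model (edgeR), unless the second deposited table (voom and limma) is named. A fold change is the log2 ratio of 8 h peroxide over control. The error after ± is an implied standard error: the absolute log2 fold change over the root of its likelihood ratio statistic. A gene is called higher or lower, or said to have risen or fallen, at an adjusted p below 0.05. The number of samples behind each test is at most 4 a group, because outliers were removed, as the name of the deposited table says, and which ones is not stated. The depth of each sample is unknown. In cultures of mixed cells, fewer cells of a type and less RNA per cell cannot be told apart.

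By 8 h most measured genes had shifted, many by small amounts, and large shifts were more often losses than gains. Of 15478 genes, 8614 (55.7%) were called in the authors' deposited table, 4243 higher (27.4%) and 4371 lower (28.2%). The median log2 fold change of all genes was 0.0054. At least 2-fold changes were fewer and less even, with 408 genes higher (2.64%) and 899 lower (5.81%). Among genes with a mean of at least 1 log2 CPM, these counts were 197 and 559. At least 4-fold changes numbered 77 higher and 174 lower. The median size of a called change was 0.35 on the log2 scale.

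**Figure D1:**
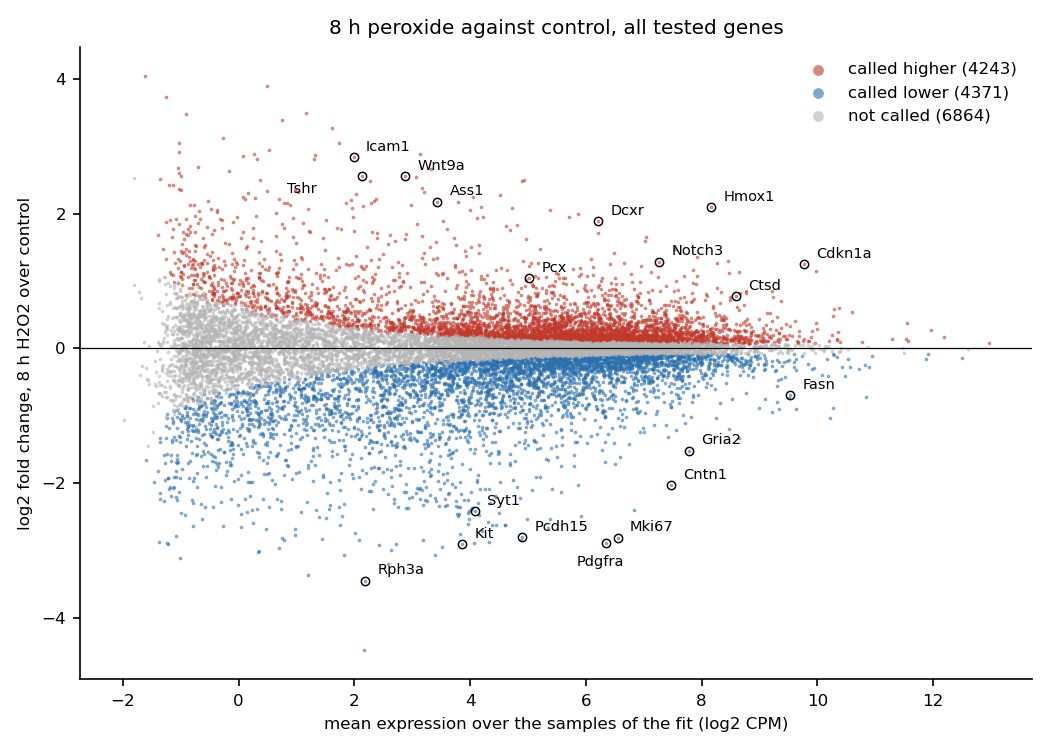
Each point is 1 of 15478 genes, by its mean expression (log2 CPM, x axis) and its log2 fold change of 8 h H2O2 over control (y axis), red where called higher (4243), blue where called lower (4371) and grey otherwise. Circled genes are named in the text, from Icam1 at 2.85 to Rph3a at -3.45.

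The 25 most increased genes with a mean of at least 1 log2 CPM spanned log2 fold changes of 2.17 to 3.50 in the authors' deposited table. They were of mixed function: none is on the cell cycle lists, and 2, Perp and Gdf15, are on the p53 lists. Several encode proteins of the cell surface. Tshr, the receptor for thyrotropin, lies at chr12:91384563-91549808 and was 5.91-fold higher (2.56 ± 0.14, adjusted p = 5.1e-75). Kcnj4, an inward rectifier potassium channel, was at 2.32 ± 0.11, and Tgfbr3, the co-receptor betaglycan, at 2.21 ± 0.15. Nipal4, a member of a magnesium transporter family, was at 2.30 ± 0.15.

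Secreted and lipid-handling proteins formed another share of these genes. The ligand gene Wnt9a was 5.89-fold higher (2.56 ± 0.12), and Podn, which encodes the leucine-rich proteoglycan podocan, was at 2.55 ± 0.11. Pltp, the phospholipid transfer protein of lipoproteins, lies at chr2:164839518-164857711 and was 4.86-fold higher (2.28 ± 0.071, adjusted p = 4.5e-221). Gdf15, a secreted stress factor of the TGF-beta superfamily, was at 2.25 ± 0.093 at 8 h, and 1.98 ± 0.099 at 1 h against the same controls. Rhbdf2, the inactive rhomboid that escorts the protease ADAM17, was at 2.49 ± 0.15. Inside the cell, Ass1, argininosuccinate synthase of arginine synthesis, was 4.54-fold higher (2.18 ± 0.095). The membrane traffic genes Tbc1d2, a GTPase-activating protein for Rab7, and Atg9b, a lipid scramblase of autophagy, were at 2.20 ± 0.13 and 2.17 ± 0.089. Palm3, a paralemmin of the plasma membrane, was at 2.21 ± 0.16, and Pierce1, a microtubule inner protein of cilia, was at 2.49 ± 0.072.

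The 25 most decreased genes lay between -2.63 and -4.49 in the authors' deposited table, and 15 of them are on the cell cycle lists. The others include a receptor pair that neighbour each other on chromosome 5. Kit, the receptor of stem cell factor (chr5:75574916-75656722), was 7.50-fold lower (-2.91 ± 0.11, adjusted p = 1.5e-147), and Pdgfra, the PDGF receptor of oligodendrocyte precursors (chr5:75152292-75198215), was 7.41-fold lower (-2.89 ± 0.060). Pcdh15, an atypical cadherin, was at -2.80 ± 0.069. The Notch ligand gene Dll3 was at -2.75 ± 0.11, the orphan receptor gene Gpr149 at -2.85 ± 0.17 and the lipid phosphatase gene Plpp4 at -2.74 ± 0.17. Mxd3, a partner of MAX that is made in S phase, was at -2.92 ± 0.18. For the 50 genes at both ends, the second deposited table gave log2 fold changes of the same sign, for instance -2.90 for Kit and 2.55 for Tshr.

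**Figure D2:**
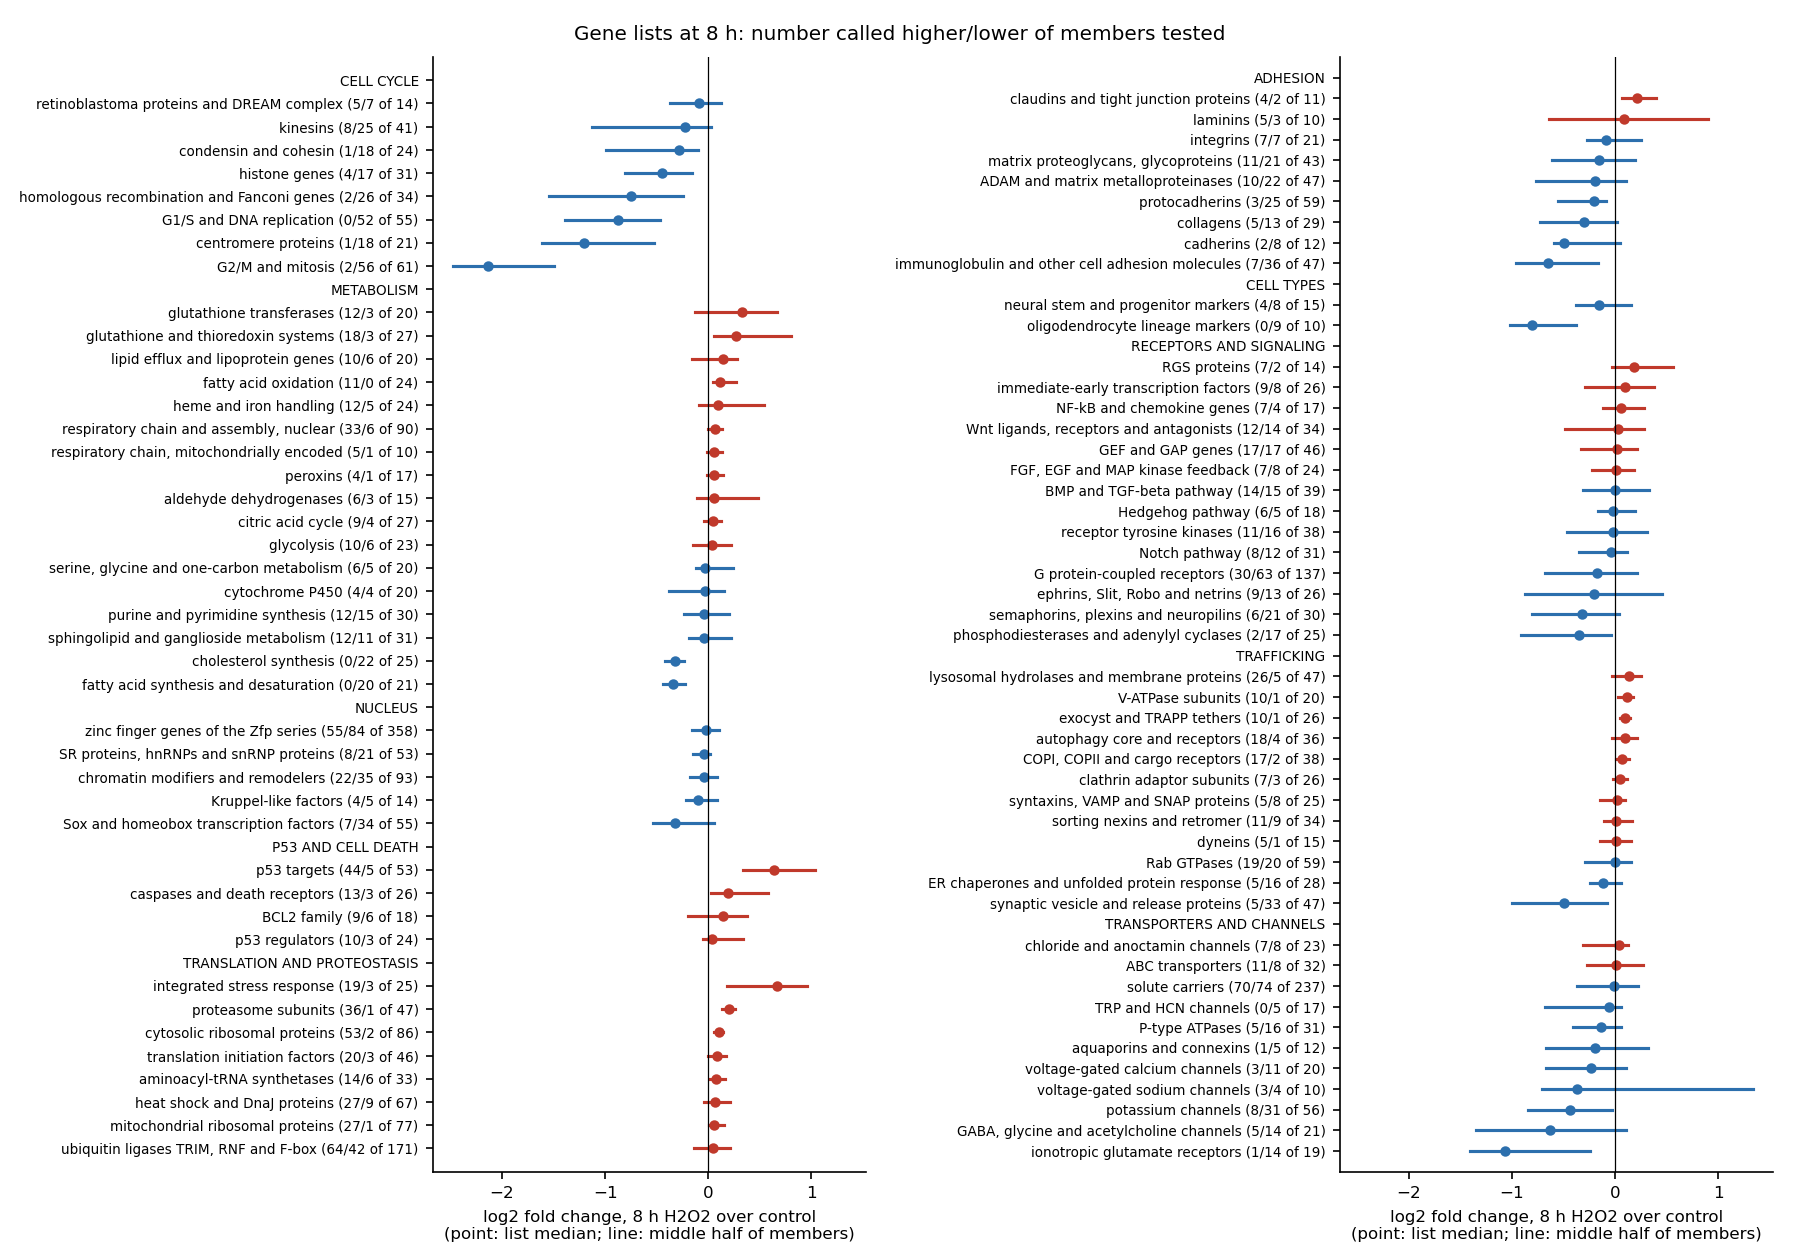
Gene lists with at least 10 tested members, by block; the point is the median log2 fold change of 8 h H2O2 over control (x axis) and the line runs from the 25th to the 75th percentile of the members, red for medians above 0 and blue below. Labels give the members called higher and lower of those tested, from G2/M and mitosis (2 higher and 56 lower of 61) to the integrated stress response (19 higher and 3 lower of 25).

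Transcripts of cell division fell, with the lower median in mitosis genes and the higher one in replication genes. Of 61 genes of G2/M and mitosis, 56 fell and 2 rose, with a median of -2.14 in the authors' deposited table. Of 55 genes of G1/S and DNA replication, 52 fell and 0 rose, with a median of -0.88. All genes had 28.2% called lower, and no test of these lists was made. Ccnb1, the cyclin that drives entry into mitosis, was at -2.87 ± 0.10 and Ccna2, the cyclin of S and G2 phase, at -2.53 ± 0.076. Plk1, a mitotic kinase, was at -2.89 ± 0.10. Top2a, the topoisomerase that untangles chromosomes, was at -2.41 ± 0.048, and Mki67, a standard marker of dividing cells, at -2.81 ± 0.065. Racgap1 of the cytokinesis machinery was at -2.14 ± 0.058.

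Genes of the spindle and the kinetochore were mostly lower as well. Among 21 centromere protein genes 18 fell, from Cenpf at -2.84 ± 0.076 and the centromeric histone gene Cenpa at -2.54 ± 0.092 to a single riser, Cenpt at 0.46 ± 0.043. The kinetochore scaffold gene Knl1 was at -2.84 ± 0.11, and Ska1, which couples kinetochores to microtubules, at -2.83 ± 0.22. Of 41 kinesin genes 25 fell and 8 rose. The lowest were mitotic motors, such as Kif11, which pushes spindle poles apart, at -2.67 ± 0.066 and Kif20a of cytokinesis at -2.71 ± 0.095. The risers included motors of intracellular transport, with Kif1c at 0.50 ± 0.032, Kif17 at 0.86 ± 0.082 and Kif3b at 0.20 ± 0.041. Other transport motors fell and are named after their values were seen, with Kif5a at -0.38 ± 0.066 and Kif3c at -0.42 ± 0.045. Among condensin and cohesin genes 18 of 24 fell, with the condensin subunit Ncapg at -2.45 ± 0.099 and Ncapd2 at -1.40 ± 0.041, and 1 rose, the cohesin release factor Wapl at 0.095 ± 0.041, a call that is lost when fold changes are centred on the median gene. The risers of the mitosis list were Pttg1, which encodes securin, at 0.68 ± 0.071 and the kinetochore gene Zwint at 0.35 ± 0.032.

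Replication and repair genes fell by smaller amounts. Mcm5 and Mcm3, subunits of the replicative helicase, were at -1.74 ± 0.049 and -1.43 ± 0.050, the ligase gene Lig1 at -1.48 ± 0.053, and Uhrf1 and Dnmt1, which copy DNA methylation after replication, at -1.38 ± 0.050 and -0.88 ± 0.035. Of 34 homologous recombination and Fanconi genes 26 fell and 2 rose, with a median of -0.75. Fancd2 was at -2.21 ± 0.11, the end resection nuclease Exo1 at -1.96 ± 0.095 and Brca1 at -1.78 ± 0.086, whereas Rad51d was at 0.45 ± 0.069 and Rad50 at 0.33 ± 0.052. Of 31 histone genes 17 fell and 4 rose. The linker histone gene H1f10 was at -0.98 ± 0.066 and the damage-marked variant H2ax at -0.90 ± 0.056, while H2aj was at 0.87 ± 0.077 and the replication-independent H3f3b at 0.31 ± 0.036. Canonical histone mRNA is mostly not polyadenylated, so these libraries hold part of it.

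Regulators of the cycle moved in both directions. Cdkn1a, the p53-driven inhibitor of cyclin-dependent kinases, was 2.38-fold higher (1.25 ± 0.032) in the authors' deposited table, and Cdkn2b was at 0.56 ± 0.050. Cdkn1c was lower, at -1.36 ± 0.097, as were Cdkn2d at -0.79 ± 0.076 and Cdkn2c at -0.44 ± 0.068. Cdkn1b, which encodes p27, was at -0.093 ± 0.037. Of the pocket proteins that hold E2F factors, Rb1 rose (1.05 ± 0.044) and Rbl1 fell (-0.93 ± 0.067). Mybl2, which activates late cell cycle genes, was at -1.82 ± 0.095.

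The promoters of these genes are shown because short motifs that cell cycle factors bind were common in them. Windows of 300 bases, 250 before and 50 after the start, were taken from RefSeq on GRCm38.p6 and searched on both strands, with a gene counted once if any of its windows matched. The CHR element TTTGAA, bound by DREAM and MYB-MuvB complexes, was in 29 of 47 mitosis genes with a window (61.7%), against 14.1% of 11087 tested genes with a window. It was in 20.5% of the replication genes. The E2F motif took the form TTCCCGC with a pair of central cytosines, the form TTCGCGC or TTGCCGC with a cytosine and a guanine, or the form TTGGCGC with a pair of guanines, and matches can overlap. It was in 29 of 44 replication genes (65.9%) and 12 of 25 recombination and Fanconi genes (48.0%), against 19.6% of all. A match is a run of letters, not a measured binding site. The windows below show the CHR or its reverse complement in capitals for Top2a (chr11:99024140-99024439) and Mki67 (chr7:135716330-135716629), each on the minus strand and with 2 matches.
Top2a: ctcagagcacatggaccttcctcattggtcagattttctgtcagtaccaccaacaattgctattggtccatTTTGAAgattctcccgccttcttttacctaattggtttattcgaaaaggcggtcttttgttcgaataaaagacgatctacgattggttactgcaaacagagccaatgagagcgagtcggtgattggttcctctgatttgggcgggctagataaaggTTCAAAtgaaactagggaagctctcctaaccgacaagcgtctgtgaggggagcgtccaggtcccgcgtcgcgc
Mki67: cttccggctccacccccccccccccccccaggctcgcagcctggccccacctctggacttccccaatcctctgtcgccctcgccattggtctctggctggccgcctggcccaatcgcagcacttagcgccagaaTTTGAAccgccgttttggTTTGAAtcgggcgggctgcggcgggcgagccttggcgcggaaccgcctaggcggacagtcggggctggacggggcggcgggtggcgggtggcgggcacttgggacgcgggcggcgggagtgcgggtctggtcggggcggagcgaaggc
For the replication genes, the capitals mark E2F forms, or their reverse complements, in Mcm5 (chr8:75109259-75109558, plus strand) and Mcm3 (chr1:20820263-20820562, minus strand). In Mcm5 they lie before the start, and in Mcm3 within the last 50 bases, after it.
Mcm5: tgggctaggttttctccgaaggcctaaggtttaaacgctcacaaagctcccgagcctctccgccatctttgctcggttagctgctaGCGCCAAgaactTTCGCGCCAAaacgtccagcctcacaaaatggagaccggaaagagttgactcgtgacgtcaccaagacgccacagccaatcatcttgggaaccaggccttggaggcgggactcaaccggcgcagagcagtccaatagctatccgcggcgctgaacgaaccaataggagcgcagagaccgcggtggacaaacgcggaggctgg
Mcm3: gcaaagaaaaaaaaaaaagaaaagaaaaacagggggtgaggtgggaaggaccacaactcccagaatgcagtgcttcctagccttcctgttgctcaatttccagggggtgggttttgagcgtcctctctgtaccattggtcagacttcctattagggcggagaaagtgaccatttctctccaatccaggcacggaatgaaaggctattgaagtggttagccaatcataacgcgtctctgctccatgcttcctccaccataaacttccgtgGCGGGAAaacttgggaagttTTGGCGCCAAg

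Most targets of p53 were higher at 8 h. Of 53 target genes 44 rose and 5 fell, with a median of 0.63 in the authors' deposited table, against 27.4% of all genes called higher. Perp, a tetraspan protein of desmosomes and apoptosis, was 5.22-fold higher (2.38 ± 0.11), and Dcxr, a sugar and dicarbonyl reductase, was 3.71-fold higher (1.89 ± 0.048). Mdm2, the ligase that degrades p53, was at 1.27 ± 0.039, Ccng1 at 1.15 ± 0.031 and Sesn2, a brake on mTORC1, at 0.96 ± 0.034. The fallers were Cd82 at -1.02 ± 0.14, Ccng2 at -0.51 ± 0.061, Trp53i11 at -0.31 ± 0.040, Polh, a translesion polymerase, at -0.22 ± 0.063 and Sesn1, named after its value was seen, at -0.20 ± 0.075. Trp53 itself was at 0.17 ± 0.035. Among its regulators, the checkpoint kinase gene Chek2 rose (0.69 ± 0.071) and Chek1, which is made in S phase, fell (-1.31 ± 0.082). Atm was at -0.23 ± 0.046 and Hipk2 at -0.46 ± 0.055.

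Cell death genes moved in both directions. Among 26 caspases, death receptors and their partners 13 rose and 3 fell, against 27.4% of all genes called higher and 28.2% lower. The death receptor gene Fas was 2.86-fold higher (1.52 ± 0.075), Tnfrsf10b, the TRAIL receptor, 2.69-fold higher (1.43 ± 0.043), and Tnfrsf1a was at 0.65 ± 0.035. Apaf1, the scaffold of the apoptosome, was at 0.97 ± 0.045, while Casp2 was at -0.49 ± 0.062. In the BCL2 family 9 of 18 rose and 6 fell, and the share lower, 33.3%, is near that of all genes. The p53-driven killers Pmaip1, Bbc3 and Bax were at 1.95 ± 0.056, 0.61 ± 0.062 and 0.33 ± 0.036. Some other killers of the family were lower, with Bok at -1.48 ± 0.12, Bmf at -1.04 ± 0.14 and Hrk at -1.55 ± 0.26. Further killers rose and are named after their values were seen, with Bcl2l11 at 0.40, Bid at 0.39 and Bak1 at 0.17. The survival gene Bcl2l1 was at 0.42 ± 0.039 and Bcl2 at -0.36 ± 0.058.

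**Figure D3:**
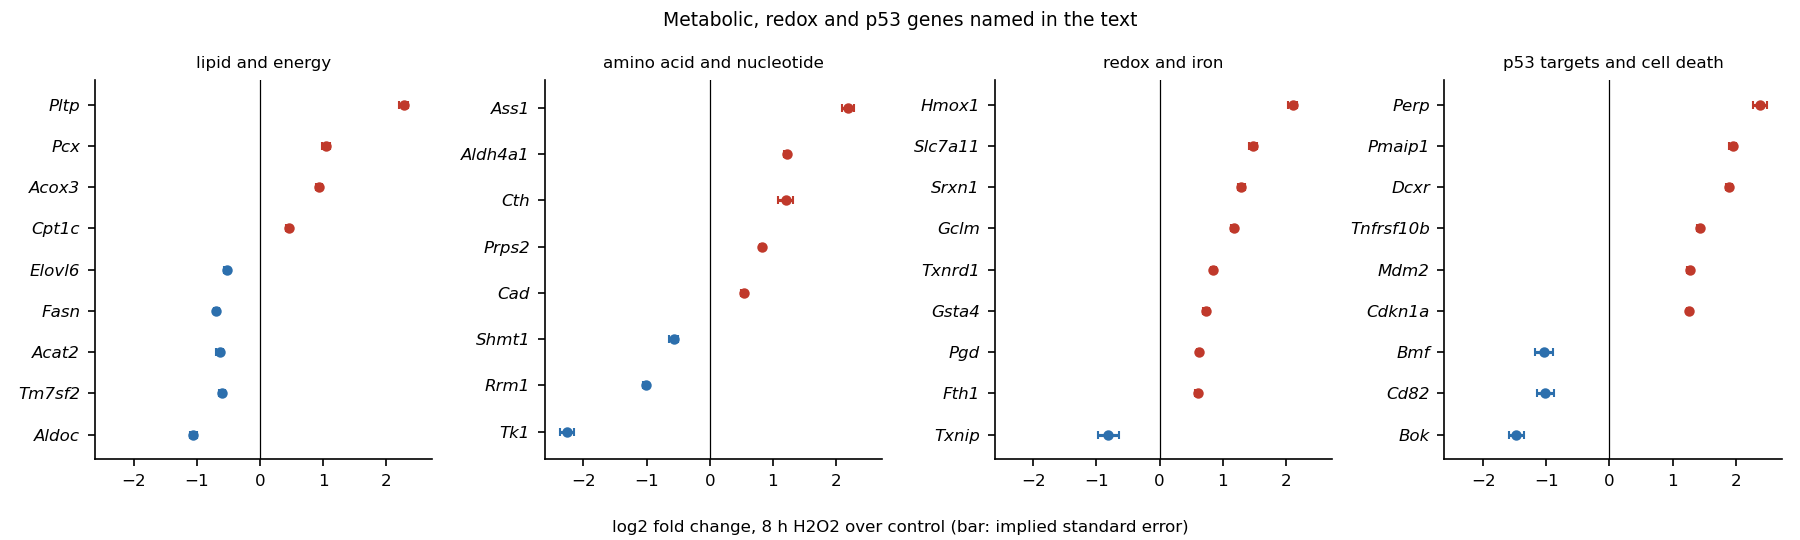
Log2 fold change of 8 h H2O2 over control (x axis) for named genes of lipid and energy metabolism, amino acid and nucleotide metabolism, redox and iron handling, and p53 and cell death, with bars for the implied standard error. Pltp (2.28), Ass1 (2.18), Hmox1 (2.11) and Perp (2.38) stand highest in their panels, and Aldoc (-1.05), Tk1 (-2.26), Txnip (-0.81) and Bok (-1.48) lowest.

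Most genes that handle peroxide and its products were higher. Of 27 genes of the glutathione and thioredoxin systems 18 rose and 3 fell in the authors' deposited table (median 0.27). Slc7a11, which imports cystine for glutathione synthesis, was 2.79-fold higher (1.48 ± 0.070), and Gclm, the regulatory subunit of the first synthesis step, 2.25-fold higher (1.17 ± 0.045). Srxn1, which repairs overoxidised peroxiredoxins, was at 1.30 ± 0.057, Txnrd1 at 0.85 ± 0.037 and Prdx6 at 0.83 ± 0.034. Txnip, which inhibits thioredoxin and glucose uptake, was lower (-0.81 ± 0.17). Hmox1, heme oxygenase 1, was 4.31-fold higher (2.11 ± 0.072), the ferritin chains Fth1 and Ftl1 were at 0.61 ± 0.039 and 0.58 ± 0.036, and Slc48a1, a heme transporter, at 0.86 ± 0.034. Of 20 glutathione transferases 12 rose, such as Gsta4 at 0.74 ± 0.045, and 3 fell, with Gstt1 at -0.51 ± 0.11. Genes of this family have near-identical copies whose reads the counting could have split. Of 8 pentose phosphate genes, which supply NADPH, 6 rose, with Pgd at 0.63 ± 0.035, G6pdx at 0.40 ± 0.033 and Taldo1 at 0.38 ± 0.034, and Rpia fell (-0.38 ± 0.084). The antioxidant response element TGACNNNGC was in 5 of 24 windows of the glutathione and thioredoxin genes (20.8%), against 16.7% of all, which is close to the background.

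Genes of lipid synthesis were lower almost throughout, while genes of lipid oxidation and efflux were higher in part. None of 21 fatty acid synthesis and desaturation genes rose and 20 fell (median -0.34) in the authors' deposited table. None of 25 cholesterol synthesis genes rose and 22 fell (median -0.32). Fasn, fatty acid synthase, was 1.62-fold lower (-0.69 ± 0.037, adjusted p = 1.8e-74), the elongase Elovl6 was at -0.53 ± 0.042 and Acaca, the committed step, at -0.48 ± 0.041. Acat2, the first step toward sterols, was at -0.64 ± 0.050, and Tm7sf2 and Dhcr7, late sterol reductases, were at -0.60 ± 0.052 and -0.42 ± 0.042. At 1 h against the same controls, the medians were -0.20 for fatty acid and -0.23 for cholesterol synthesis. The sterol response element form TCACNCCAC was in 1 of 18 cholesterol gene windows (5.56%), against 1.43% of all genes, and the CCAAT box in 17 (94.4%), against 43.0% of all. The CCAAT box was also in 66.0% of the mitosis genes. The window of Tm7sf2 (chr19:6067801-6068100, minus strand) shows its CCAAT box, here read as ATTGG, in capitals.
Tm7sf2: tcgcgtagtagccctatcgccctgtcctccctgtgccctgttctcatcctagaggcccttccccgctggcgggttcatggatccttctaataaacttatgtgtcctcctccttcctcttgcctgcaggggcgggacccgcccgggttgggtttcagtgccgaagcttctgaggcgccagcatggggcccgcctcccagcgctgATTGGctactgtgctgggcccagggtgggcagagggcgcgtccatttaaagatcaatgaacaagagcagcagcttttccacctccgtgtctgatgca

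Of 24 fatty acid oxidation genes 11 rose and 0 fell in the authors' deposited table. Acox3, a peroxisomal oxidase, was at 0.94 ± 0.049, Cpt1c, the brain form of the carnitine transferase, at 0.45 ± 0.036 and Acads, which acts on short chains, at 0.43 ± 0.045. Lipid efflux and lipoprotein genes were mixed, 10 higher and 6 lower of 20. Abcg1 of this list, named after its value was seen, was lower at -0.60. Besides Pltp, the cholesterol exporter Abca1 was at 0.54 ± 0.092 and the lipoprotein receptor Vldlr at 0.36 ± 0.036, whereas Npc1, the lysosomal cholesterol exporter, was at -0.30 ± 0.037 and Lpl, lipoprotein lipase, at -0.42 ± 0.086. Sphingolipid genes also split, 12 higher and 11 lower of 31. The ceramidase gene Acer2 was at 2.82 ± 0.32 from a low mean level of 0.321 log2 CPM, and Kdsr of sphinganine synthesis at 0.50 ± 0.056. St8sia1, a ganglioside synthase, fell to -1.44 ± 0.070, and Ugt8a, which makes galactosylceramide of myelin, to -1.32 ± 0.062.

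Glycolysis and citric acid cycle genes moved in both directions. Of 23 glycolysis genes 10 rose and 6 fell in the authors' deposited table, with a median of 0.039. The glucose transporter Slc2a1 was at 0.46 ± 0.039 and Hk1, which traps glucose in the cell, at 0.44 ± 0.036. Aldoc, the astroglial aldolase, was 2.07-fold lower (-1.05 ± 0.054), and Pfkfb3, which makes the activator of phosphofructokinase, was at -0.36 ± 0.046. Pcx, pyruvate carboxylase that refills the citric acid cycle, was 2.06-fold higher (1.04 ± 0.060). Other citric acid cycle genes moved less, from Idh2 at -0.41 ± 0.036 to Dld at 0.29 ± 0.032, and 14 of 27 were not called. The aldehyde dehydrogenase Aldh4a1 of proline breakdown was at 1.22 ± 0.043, Aldh1a3, which makes retinoic acid, at 0.67 ± 0.035 and Aldh2 at 0.47 ± 0.040.

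Nucleotide genes moved in both directions, and the largest falls were in enzymes made for S phase. Tk1, thymidine kinase, was 4.78-fold lower (-2.26 ± 0.11), and the ribonucleotide reductase subunits Rrm2 and Rrm1 were at -1.30 ± 0.045 and -1.02 ± 0.038 in the authors' deposited table. The risers included Prps2, which makes phosphoribosyl pyrophosphate, at 0.83 ± 0.038, Cad of pyrimidine synthesis at 0.53 ± 0.036 and the salvage enzyme Hprt at 0.57 ± 0.049. Over the list, 12 of 30 rose and 15 fell. In serine and one-carbon metabolism 6 of 20 rose and 5 fell, close to the shares of all genes, 27.4% higher and 28.2% lower. Cth, which makes cysteine from cystathionine, was 2.30-fold higher (1.20 ± 0.12), Mthfd1 was at 0.42 ± 0.036 and Mtr, methionine synthase, at 0.40 ± 0.037, whereas Shmt1 was at -0.57 ± 0.071 and Psat1 at -0.33 ± 0.032.

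Genes of translation were called higher more often than lower, by small amounts. With protein-coding genes sorted into 4 equal bins of mean level, the highest bin had 40.4% called higher and the next 33.9%, against 27.4% of all genes, and the initiation factor, synthetase and mitochondrial ribosomal shares below are close to these. Of 86 cytosolic ribosomal protein genes 53 rose and 2 fell in the authors' deposited table, with a median of 0.11. Many of these genes have processed pseudogenes that can share reads. Rps27l, a p53-induced paralogue of Rps27, was at 0.43 ± 0.037. Of 77 mitochondrial ribosomal genes 27 rose (Mrps31 at 0.43 ± 0.051) and of 46 initiation factors 20 rose (Eif2d at 0.47 ± 0.042, Eif6 at 0.42 ± 0.036). Eif4ebp1, which holds the cap-binding factor and is a target of ATF4, was at 1.05 ± 0.053. Over 25 genes of the integrated stress response, the ATF4 program, 19 rose and 3 fell. Those that fell were Psat1, Aldh1l2 at -0.41 ± 0.045 and Stc2 at -0.20 ± 0.089. Cars, the cysteinyl-tRNA synthetase, was at 0.62 ± 0.041 and Gars at 0.42 ± 0.040, and 14 of 33 synthetase genes rose.

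Proteasome genes were mostly higher, 36 of 47 (median 0.20), against 27.4% of all genes called higher and 28.2% lower. The one that fell, the assembly chaperone gene Psmg1 at -0.15 ± 0.066, was not called in the second deposited table. Psmc1, an ATPase of the regulatory particle, was at 0.43 ± 0.033 and Psmd11, a lid subunit, at 0.42 ± 0.035. Of 28 chaperone and stress genes of the endoplasmic reticulum 16 fell and 5 rose in the authors' deposited table: Hspa5, which encodes BiP, was at -0.28 ± 0.035, Calr at -0.29 ± 0.036, Sdf2l1 at -0.79 ± 0.073 and Dnajc3 at -0.51 ± 0.041, while Canx was at 0.26 ± 0.031. Of 67 heat shock and DnaJ genes of any compartment 27 rose and 9 fell. The mitochondrial chaperone Hspa9 was at 0.36 ± 0.031, the small heat shock gene Hspb8 at 0.65 ± 0.041 and the constitutive cytosolic Hspa8 at -0.28 ± 0.034. Ubiquitin ligase families were spread, 64 higher and 42 lower of 171 (37.4% and 24.6%). Those shares are near the 33.9% and 28.1% of protein-coding genes in the bin of mean level next to the highest. Trim7 was at 1.70 ± 0.11 and Trim11 at 0.86 ± 0.042, and Trim67, a neural member, at -2.08 ± 0.097. Fbxo5, which holds back the anaphase-promoting complex, was at -1.68 ± 0.093.

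Most genes of mitochondrial respiration moved little. Of 90 nuclear-encoded subunits and assembly factors 33 rose and 6 fell (median 0.070) in the authors' deposited table. These are 36.7% higher and 6.67% lower, against 27.4% and 28.2% of all genes. The share higher is close to that of similarly expressed genes given above. Ndufb6 of complex I was at 0.52 ± 0.039. The largest rise was Cox6b2, a complex IV isoform best known from testis, at 1.24 ± 0.14. Of 10 mitochondrially encoded genes 5 rose and 1 fell, and all lay within -0.14 and 0.17. ND1 was at 0.17 ± 0.033 and CYTB at -0.14 ± 0.035.

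In trafficking, lysosomal, autophagy and early secretory genes were called higher more often than lower, by small amounts, and most genes of regulated release were lower. Of 47 lysosomal genes 26 rose and 5 fell (median 0.14) in the authors' deposited table. Ctsd, the main lysosomal aspartic protease, was 1.71-fold higher (0.77 ± 0.031, adjusted p = 1.2e-134), Lamp2 was at 0.35 ± 0.041, and the dipeptidyl peptidase Ctsc was lower, at -0.57 ± 0.082. Of 20 subunits of the proton pump that acidifies lysosomes 10 rose, such as Atp6v1h at 0.36 ± 0.039, and Atp6v1g2, the neuronal form, fell (-0.45 ± 0.11). Of 36 autophagy genes 18 rose, led in size by Wipi1, a phosphoinositide effector, at 0.96 ± 0.054 and the cargo receptor Sqstm1 at 0.82 ± 0.036, and 4 fell, such as Uvrag at -0.26 ± 0.068. Of 38 coat and cargo receptor genes of the early secretory route 17 rose and 2 fell, a share higher that is close to that of similarly expressed genes given above. Kdelr3, which returns ER proteins from the Golgi, was 2.32-fold higher (1.22 ± 0.087), and Sec24d, a COPII cargo adaptor, was at 0.33 ± 0.041. Of 26 exocyst and TRAPP tether genes 10 rose and 1 fell, again close to that share, with Exoc2 at 0.78 ± 0.050 and Exoc7 at 0.69 ± 0.038.

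Of 47 synaptic vesicle and release genes 33 fell and 5 rose (median -0.50) in the authors' deposited table. Rph3a, an effector of Rab3, was at -3.45 ± 0.16, and the calcium sensor Syt1 at -2.42 ± 0.12. Rab3c and Rab3b, GTPases of secretory vesicles, were at -1.86 ± 0.14 and -0.69 ± 0.044. Among 59 genes whose symbols match the Rab pattern 19 rose and 20 fell. They include genes that are not Rab GTPases, named after their values were seen: Rab3ip, which rose, and Rab3il1, Rab10os and Rab26os, not called. Rab GTPases of general traffic were among the risers, with Rab21 at 0.42 ± 0.035 and Rab6a at 0.25 ± 0.032. The neural paralogue of Rab6a, Rab6b, was at -0.85 ± 0.061. Syt17 (1.47 ± 0.18) and Syt4 (0.49 ± 0.096) rose against the trend of the list.

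**Figure D4:**
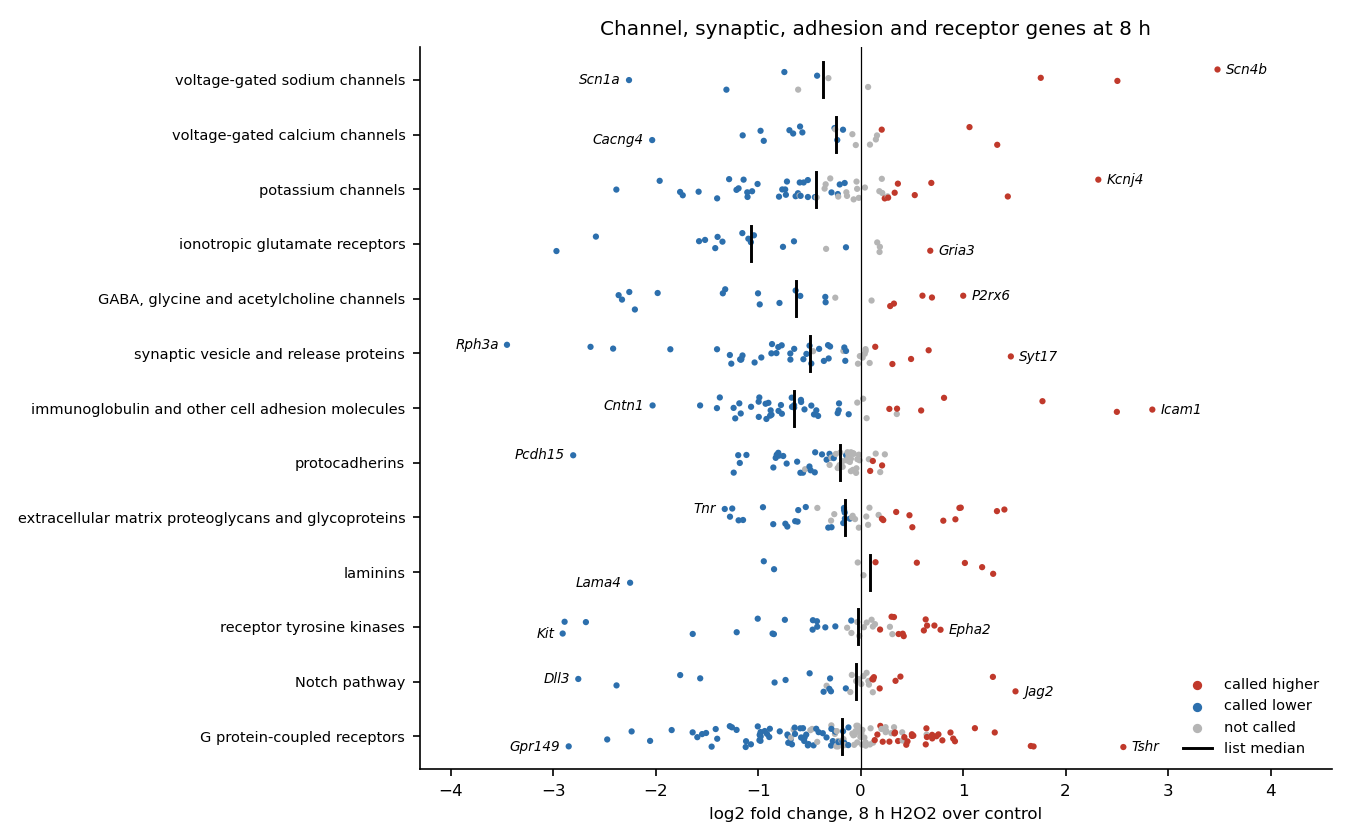
Log2 fold change of 8 h H2O2 over control (x axis) for every tested member of 13 lists of channels, synaptic proteins, adhesion molecules and receptors, red where called higher, blue where called lower and grey otherwise, with a black bar at the list median. The lowest and highest member of a list is labelled where the text names it; ionotropic glutamate receptors have the lowest of these medians, -1.07.

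Most adhesion molecules were lower, and a few were higher. Of 47 immunoglobulin and other adhesion genes 36 fell and 7 rose (median -0.65) in the authors' deposited table. Cntn1, a contactin of axons and glia, was 4.08-fold lower (-2.03 ± 0.075, adjusted p = 5.3e-158), Lsamp was at -1.24 ± 0.068 and Alcam at -0.88 ± 0.043. Icam1, a leukocyte ligand, was 7.19-fold higher (2.85 ± 0.16) and Bcam, a laminin receptor, 3.42-fold higher (1.77 ± 0.15). The hyaluronan receptor Cd44 was at 0.36 ± 0.031. Protocadherins had 25 lower and 3 higher of 59, with Pcdh19 at -1.11 ± 0.064 and Pcdh17 at -0.82 ± 0.045. The clustered members share exons at their 3′ ends, so reads cannot always be assigned among them. Of 12 cadherins 8 fell, such as Cdh6 at -0.81 ± 0.059 and Cdh4 at -0.63 ± 0.047, and Cdh2, N-cadherin, was at 0.17 ± 0.034. Gja1, connexin 43 of gap junctions, was 2.17-fold higher (1.12 ± 0.041), and Gjc3, an oligodendroglial connexin, was at -0.83 ± 0.064.

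Of 43 matrix proteoglycan and glycoprotein genes 21 fell and 11 rose. Several chondroitin sulfate proteoglycans and partners of the neural matrix fell: Bcan, brevican, was at -1.19 ± 0.066, Cspg5 at -1.15 ± 0.048, Ptprz1 at -0.72 ± 0.036 and Tnr, tenascin-R, at -1.33 ± 0.094 in the authors' deposited table. The risers included genes of basement membrane and heparan sulfate proteins: Hspg2, perlecan, was at 0.93 ± 0.040, Col18a1 at 0.98 ± 0.051, the syndecan gene Sdc1 at 1.33 ± 0.046 and the glypican gene Gpc4 at 0.96 ± 0.061. Others of these kinds fell and are named after their values were seen, with Nid2, nidogen 2, at -0.62 ± 0.16, the glypican gene Gpc2 at -0.64 ± 0.097 and Agrn, agrin, at -0.16 ± 0.034. Vcan, versican, was an exception among chondroitin sulfate proteoglycans, at 0.48 ± 0.042. Laminin chains went both ways, with Lamb1 at 1.02 ± 0.074 and Lama2 at 1.19 ± 0.17 higher and Lama4 at -2.25 ± 0.10 and Lama1 at -0.84 ± 0.10 lower. Of 29 collagens 13 fell and 5 rose, and of 21 integrins 7 fell and 7 rose. Itga3, a laminin-binding chain, was at 0.61 ± 0.067 and Itga4, which binds fibronectin and Vcam1, at -0.90 ± 0.12. Matrix proteases were more often lower, 22 against 10 higher of 47, with Mmp17 at -1.86 ± 0.098 and the inhibitor gene Timp4 at -1.22 ± 0.068. Adamtsl4 was at 1.41 ± 0.12.

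Most channels that carry synaptic current were lower. Of 19 ionotropic glutamate receptor genes 14 fell and 1 rose in the authors' deposited table (median -1.07). Grin3a, an NMDA receptor subunit, was 5.99-fold lower (-2.58 ± 0.10), Gria2, the AMPA subunit that blocks calcium entry, 2.86-fold lower (-1.52 ± 0.078), and Grik3 of the kainate type was at -1.42 ± 0.081. The single riser was the AMPA subunit Gria3, at 0.68 ± 0.035. Of 21 GABA, glycine, acetylcholine and ATP-gated channel genes 14 fell and 5 rose. Gabrg1, a GABA receptor subunit, was at -1.32 ± 0.087 and the glycine receptor subunit Glrb at -0.98 ± 0.082. The risers included the ATP-gated P2rx7 at 0.60 ± 0.040 and P2rx6 at 1.00 ± 0.10. The nucleotide-activated G protein-coupled receptors P2ry1 and P2ry2 also rose, P2ry1 to 0.70 ± 0.055 and P2ry2 to 0.90 ± 0.073.

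Of 56 potassium channel genes 31 fell and 8 rose (median -0.44) in the authors' deposited table. Kcnj10, the Kir4.1 channel of glia, was 2.15-fold lower (-1.11 ± 0.047), Kcnd2, an A-type channel, was at -1.96 ± 0.087 and the tandem-pore Kcnk10 at -1.76 ± 0.10. Kcnj4 was among the 8 that rose, as were Kcnc1 at 0.36 ± 0.046 and Kcnk13 at 0.53 ± 0.13. Of 10 sodium channel genes 4 fell and 3 rose. The pore-forming Scn1a, Scn3a and Scn8a fell, to -2.26 ± 0.24, -1.31 ± 0.21 and -0.42 ± 0.050. The auxiliary Scn3b and Scn4b rose, to 1.76 ± 0.067 and 3.48 ± 0.53, the last at a mean of -0.915 log2 CPM. Of 20 calcium channel genes 11 fell, including Cacng4, a partner of AMPA receptors, at -2.03 ± 0.067 and the L-type Cacna1c at -0.69 ± 0.061, and 3 rose, with the P/Q-type Cacna1a at 0.21 ± 0.044. The anoctamins Ano3 and Ano1 rose, to 1.07 ± 0.051 and 0.58 ± 0.074.

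Transporters had no common direction: of 237 solute carriers 70 rose and 74 fell, and of 32 ABC transporters 11 rose and 8 fell. Over all genes, 27.4% were called higher and 28.2% lower. Slc37a2, a sugar phosphate carrier, was 3.12-fold higher (1.64 ± 0.082) in the authors' deposited table, and Slc3a2, the shared chain of several amino acid carriers, was at 0.72 ± 0.033. Slc38a2, a glutamine carrier, was lower at -0.80 ± 0.041. The astroglial glutamate transporters Slc1a3 and Slc1a2 were at -0.43 ± 0.037 and -0.43 ± 0.048. Slc44a5, of the choline transporter-like family, was 4.13-fold lower (-2.05 ± 0.13). Abcb1b, a multidrug pump, was 2.24-fold higher (1.17 ± 0.064), the glutathione conjugate pump Abcc1 was at 0.44 ± 0.043 and Abca7 at -0.92 ± 0.076. The plasma membrane calcium pump Atp2b2 was at -1.34 ± 0.14, in the family of P-type ATPases with 16 lower and 5 higher of 31.

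Receptors for growth factors moved in both directions, as did all genes, with 27.4% called higher and 28.2% lower. Of 38 receptor tyrosine kinases 11 rose and 16 fell in the authors' deposited table, 6 of them at least 2-fold lower. Besides Pdgfra and Kit, Erbb4, a neuregulin receptor, was 3.11-fold lower (-1.64 ± 0.088). Ntrk3, whose counts are shared in the table with an overlapping transcript, was 2.01-fold lower. The risers included Epha2 at 0.78 ± 0.043, Axl, a receptor for Gas6, at 0.72 ± 0.044, Ptk7 at 0.65 ± 0.041 and Egfr, the EGF receptor, at 0.42 ± 0.037. Of 137 G protein-coupled receptor genes 63 fell and 30 rose (median -0.18). The adhesion members Adgrg1, Adgrl3 and Adgrb2 were at -0.59 ± 0.039, -0.58 ± 0.040 and -0.55 ± 0.037, and Gpr75 was at 1.69 ± 0.12. Cyclic nucleotide enzymes mostly fell, 17 of 25, with Pde7b at -1.65 ± 0.10, Pde9a at -1.24 ± 0.059 and Adcy5 at -1.18 ± 0.079, but the adenylyl cyclase Adcy2 was 3.72-fold higher (1.90 ± 0.086).

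In developmental signalling, members of 1 pathway moved in both directions, as did all genes, with 27.4% called higher and 28.2% lower. In the Notch pathway (8 higher and 12 lower of 31), Notch3 was 2.45-fold higher (1.29 ± 0.041, adjusted p = 1.7e-212) and the ligand Jag2 was at 1.51 ± 0.16 in the authors' deposited table. The ligands Dll3 and Dll1 (-0.73 ± 0.056) and the target Hes5 (-2.38 ± 0.20) fell. Notch1 was at 0.13 ± 0.036. In the BMP and TGF-beta pathway 14 of 39 rose and 15 fell. The TGF-beta receptor Tgfbr2 was at 0.79 ± 0.081 and the transducer Smad3 at 0.46 ± 0.036. The BMP ligands Bmp4 and Bmp7 were at -0.99 ± 0.10 and -0.65 ± 0.073, and the BMP target Id3 at -1.02 ± 0.077. Others went the opposite way, and are named after their values were seen: Tgfbr1 was at -0.15 ± 0.045, Bmp2 at 0.61 ± 0.17 and Bmp6 at 0.72 ± 0.19. Among Wnt genes (12 higher and 14 lower of 34), the feedback targets Axin2 and Nkd1 were at -0.56 ± 0.077 and -1.51 ± 0.11, the ligand Wnt7a at -1.55 ± 0.10 and the receptor Fzd10 at 1.12 ± 0.11. In the Hedgehog pathway the target genes Ptch1 and Hhip fell, to -0.74 ± 0.047 and -0.94 ± 0.11, and the transducer Smo was at 0.19 ± 0.036. Fgf18 was at 2.24 ± 0.30, from a mean level of 0.289 log2 CPM.

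Axon guidance genes moved in both directions within families, and most semaphorin, plexin and neuropilin genes fell. Of these 30 genes 21 fell and 6 rose in the authors' deposited table. The shares are 70% lower and 20% higher, against 28.2% and 27.4% of all genes. Plxnb2 and Plxna1 were at 0.85 ± 0.034 and 0.81 ± 0.035, while Plxnc1, Plxnb3 and Plxna2 were at -1.99 ± 0.11, -1.13 ± 0.076 and -0.73 ± 0.035. The netrin receptor Dcc was 3.75-fold lower (-1.91 ± 0.090) and Unc5c was at -1.38 ± 0.099. The Robo family genes Robo3 and Robo1 rose, to 2.17 ± 0.16 and 0.93 ± 0.053, and the ephrin Efna3 was at 1.85 ± 0.098 while Efnb3 was at -0.97 ± 0.083. Of the GTPase-activating proteins, Arhgap27 was at 1.33 ± 0.15 and Arhgap33 at -1.40 ± 0.065.

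Inflammatory and early response genes were mixed at 8 h, as were all genes, with 27.4% called higher and 28.2% lower. Of 17 NF-kB and chemokine genes 7 rose and 4 fell in the authors' deposited table. Besides Icam1, the cytokine Lif was at 0.63 ± 0.051, Csf1 at 0.49 ± 0.048 and Nfkb2 at 0.48 ± 0.050, and the inhibitor gene Nfkbia was at -0.23 ± 0.058. Of 26 immediate-early factors 9 rose and 8 fell, with a median of 0.10 at 8 h and 0.82 at 1 h against the same controls. Klf4 was at 0.83 ± 0.062, Fosl1, an AP-1 subunit, at 0.83 ± 0.043 and Jun at 0.41 ± 0.037. Myc was at -0.47 ± 0.035, Egr2 at -0.78 ± 0.15 and Nr4a1 at -0.52 ± 0.074. Of the feedback genes of MAP kinases, Dusp14 and Dusp5 rose (0.65 ± 0.054 and 0.45 ± 0.054) and Dusp8 and Spry1 fell (-1.47 ± 0.079 and -0.66 ± 0.045).

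The labelled cell type was read from its markers. Vim, Nes and Sox2, genes of neural precursors, had mean levels of 12.0, 10.6 and 8.43 log2 CPM, a scale that is not corrected for gene length, in the authors' deposited table. Their 8 h values were 0.28 ± 0.032 for Vim, 0.54 ± 0.045 for Nes and -0.089 ± 0.033 for Sox2. Fabp7, a fatty acid binding protein of radial glia, was at -0.90 ± 0.049. Markers of later lineages were present and mostly lower: 9 of 10 oligodendrocyte lineage genes fell (Sox10 at -0.96 ± 0.064, Mbp at -0.88 ± 0.063). In the neuron list 6 of 8 fell (Dcx at -1.62 ± 0.098, Map2 at -0.76 ± 0.044), and in the astrocyte list 6 of 8 (S100b at -0.88 ± 0.087, Gfap at -0.49 ± 0.081, Aqp4 at -0.26 ± 0.065). Of the other astrocyte markers 1 rose, Gja1 at 1.12, the largest change of that list, and 1 was not called. In the ependymal list 2 of 4 rose and 0 fell, with the ciliary factor Foxj1 at 0.78 ± 0.062. The microglia list had 3 tested genes, 1 higher and 0 lower, and the endothelial and mural list 5, 1 higher and 1 lower. Their defining genes Aif1, Cx3cr1, Tmem119, Itgam, Ptprc, Cldn5, Cdh5 and Tek are not among the tested genes. The part that lineage composition has in the falls of synaptic, channel, adhesion and matrix genes was not tested.

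Transcription factor genes of development were mostly lower, and chromatin and splicing genes moved by small amounts. Of 55 Sox and homeobox factors 34 fell and 7 rose (median -0.32) in the authors' deposited table. Over all genes, 27.4% were called higher and 28.2% lower. Gsx1 was 4.45-fold lower (-2.15 ± 0.095), Sox3 was at -1.35 ± 0.061 and Sox6 at -0.68 ± 0.043, and Zfhx3 was at 0.65 ± 0.065. Of 93 chromatin genes 35 fell (37.6%) and 22 rose (23.7%), not far from the shares of all genes. The remodeler Chd3 was at -0.84 ± 0.047 and Ezh2, the Polycomb methyltransferase, at -0.61 ± 0.040, while Kdm7a was at 0.49 ± 0.050. Of 53 splicing factor genes 21 fell and 8 rose, within -0.41 and 0.37, and Hnrnpa2b1 was at -0.41 ± 0.033. Zinc finger genes of the Zfp series were mostly not called (219 of 358). Zfp385a, which binds p53, was 2.08-fold higher (1.06 ± 0.035).

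Long genes were lower more often than short ones. Among 13263 protein-coding genes placed by GENCODE M21 on GRCm38 and sorted into 8 equal bins of genomic span, the authors' deposited table called 49.2% lower and 21.9% higher in the bin of the longest genes (above 118 kb), with a median of -0.14. In the bin of the shortest genes (up to 5.74 kb) 22.4% were lower and 30.3% higher, with a median of 0.044. The shares of the 6 bins between ran from 23.9% to 34.8% lower. Several lists that fell hold long genes: the median span was 278 kb for ionotropic glutamate receptors and 114 kb for adhesion molecules, against 19.6 kb for mitosis genes and 16.9 kb for p53 targets. The part of gene span in those falls was not tested.

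**Figure D5:**
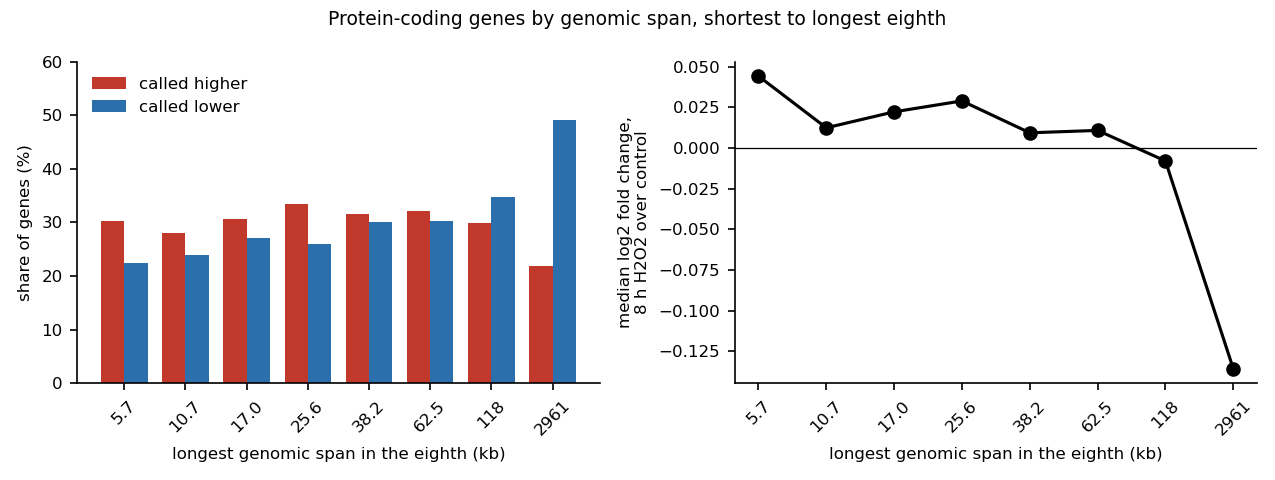
Protein-coding genes in 8 equal bins by genomic span, from shortest to longest (x axis, longest span in each bin in kb). Left, the share of genes called higher (red) and lower (blue) at 8 h H2O2 against control; right, the median log2 fold change, which is -0.14 in the longest bin.

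Genes at both ends were also read for expressed neighbours upstream on the same strand. Of the 25 most increased genes 13 had a tested gene of at least 1 log2 CPM upstream on the same strand within 50 kb, and of the 25 most decreased 11 did. Among genes below 2 log2 CPM, the share was 41.7% for those called and at least 2-fold higher, 33.7% for those at least 2-fold lower and 39.7% for all. Ass1 lies 9.47 kb from the end of Hmcn2. Tshr, Kit and Pdgfra have no such gene within 50 kb. The part of neighbouring transcription in these values was not tested.

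The 1 h values rest on the same sham samples as the 8 h values, so the comparisons are set side by side and no relation between them is given. The authors' deposited table called 6606 genes (42.7%) at 1 h against control and 9708 genes (62.7%) at 8 h against 1 h. Perp was at 2.38 ± 0.11 at 8 h and 0.11 ± 0.15 at 1 h. Pltp was at 2.28 ± 0.071 at 8 h and -0.071 ± 0.095 at 1 h. Pcx was at 1.04 ± 0.060 at 8 h and 0.070 ± 0.068 at 1 h, and Notch3 at 1.29 ± 0.041 at 8 h and -0.23 ± 0.044 at 1 h. None of these 4 was higher by as much as 0.2 at 1 h on the log2 scale. Of the falling genes, Pdgfra was at -2.89 ± 0.060 at 8 h and -0.42 ± 0.052 at 1 h, and Cntn1 at -2.03 ± 0.075 at 8 h and -0.11 ± 0.071 at 1 h. The median of the mitosis list was -2.14 at 8 h and 0.18 at 1 h.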

How the data were processed

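RNA of mouse neural precursor cells was read as stranded polyadenylated libraries, per the labels' protocols. Reads were placed on GRCm38, per the submitters' processing notes, and counted per gene with featureCounts, per the file headers. No values of single samples were used. The authors' deposited tables give log2 fold changes, mean log2 CPM, likelihood ratio or t scores, and p-values and adjusted p-values from edgeR's generalised linear model and from limma with voom; no source used here names their versions. The count test planned from per-sample values therefore gave way to the authors' deposited edgeR table, with Benjamini-Hochberg adjusted p-values over 15478 genes. From it, implied standard errors, folds, counts per list and medians were computed with Python 3.11.15, pandas 2.3.3 and numpy 2.4.6, and the scripts were tested on simulated data. Promoter windows came from RefSeq (GRCm38.p6) and spans from GENCODE M21. Of 1245 list entries 1184 matched by symbol, 2 by Ensembl ID and 59 not at all, over 98 lists. Lists overlap, and the same gene can stand on several. Genes, lists and comparisons were chosen with earlier results of these data known, so lists carry no test. Named genes are the 25 highest and 25 lowest with a mean of at least 1 log2 CPM, up to 4 called members per list and direction with the smallest adjusted p, and 8 marker genes. Other names are marked as chosen after their values were seen. Some genes the rule takes are not reported here. The alternatives were the voom table, a minimum mean, a stricter threshold and centring.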

Additional observations from a re-analysis of the deposited data

Results flagged for a closer look

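The differences below come from the authors' deposited comparison of 8 h against 1 h. The 681 named genes were chosen mostly for their calls at 8 h. Among them, 15 moved by at least 0.5 on the log2 scale in opposite directions at 8 h and at 1 h against control, each called in both, and were looked at again. Such genes were not counted over all genes, so whether 15 is many cannot be said. Since these 15 were chosen for those opposite calls, their differences are a description, with no test. Of these, 10 were lower at 8 h and higher at 1 h.

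Txnip, the thioredoxin inhibitor, was at -0.81 ± 0.17 at 8 h and 1.63 ± 0.16 at 1 h, a difference of -2.44 ± 0.16. Early response genes took the same course: Egr2 was at -0.78 ± 0.15 at 8 h and 1.31 ± 0.13 at 1 h (difference -2.09 ± 0.14), Nr4a1 at -0.52 ± 0.074 and 1.15 ± 0.067 (difference -1.67 ± 0.067), and Arc, a synaptic gene, at -0.66 ± 0.086 and 0.55 ± 0.082 (difference -1.21 ± 0.083). Dusp8, a phosphatase of stress kinases, was at -1.47 ± 0.079 at 8 h and 0.85 ± 0.070 at 1 h, with a difference of -2.33 ± 0.076. The killer gene Bmf was at -1.04 ± 0.14 and 0.61 ± 0.13, with a difference of -1.65 ± 0.14.

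Membrane and junction genes were in the same set. Gjd2, a neuronal connexin, was at -2.85 ± 0.28 at 8 h and 0.51 ± 0.20 at 1 h (difference -3.36 ± 0.27). Hcn4, a pacemaker channel, was at -1.69 ± 0.32 and 0.66 ± 0.25 (difference -2.35 ± 0.30), and Cgn, which encodes the tight junction protein cingulin, at -0.57 ± 0.26 and 0.56 ± 0.24 (difference -1.13 ± 0.24). Cgn was not called at 8 h in the second deposited table. The cytochrome gene Cyp2j8 was at -0.95 ± 0.43 and 1.39 ± 0.33 (difference -2.33 ± 0.35).

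The opposite course, higher at 8 h and lower at 1 h, was taken by 5 genes. Tshr was at 2.56 ± 0.14 at 8 h and -1.10 ± 0.25 at 1 h, a difference of 3.67 ± 0.17. The anoctamin genes Ano3 and Ano1 differed by 1.63 ± 0.056 and 1.16 ± 0.080 between 8 h and 1 h. Zfhx3, a homeobox factor, differed by 1.21 ± 0.070, and Arhgap28, a GTPase-activating protein, by 1.63 ± 0.13.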

How the results depend on the processing

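The counts of genes called higher and lower stayed close to each other in each setting, and were lowest at an adjusted p below 0.01. They were 4243 higher and 4371 lower in the reported table, 3976 and 4190 in the voom table, 3878 and 3857 among genes with a mean of at least 1 log2 CPM, 3451 and 3726 at an adjusted p below 0.01, and 4124 and 4470 after centring on the median gene. The calls with the minimum mean are not those of the deposited adjusted p, by which 7630 genes of that level were called. The counts of at least 2-fold changes depended on weakly expressed genes. With a mean of at least 1 log2 CPM, 197 genes were at least 2-fold higher and 559 lower, against 408 and 899 without that minimum. That minimum leaves 12408 of 15478 genes. Of 681 named genes, 676 kept their call in the voom table, and the calls of Mrps26, Fgf13, Cgn, E2f4 and Psmg1 were lost there. Centring ended the calls of Tjp1, Wapl and Klf6. No named gene changed sign among these alternatives. With the minimum mean, 9 list medians were marked as moved and 89 as the same. The median of potassium channels was -0.29, against -0.44 without it, and that of GABA, glycine, acetylcholine and ATP-gated channels was -0.34, against -0.63. Glutathione transferases had 0.16, against 0.32, and collagens -0.11, against -0.30. The median of receptor tyrosine kinases, near 0 in each case, went from -0.023 to 0.032. No paired analysis was possible because the files hold no values of single samples, and fits that leave out each replicate in turn were not run for the same reason. Depth limits what can be said of weak genes: the median implied standard error was 0.305 below a mean of 1 log2 CPM and 0.055 above it.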
